A study of Mus musculus with 12 samples.

Results

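The genes described here are receptors, ligands and direct target genes of the Notch pathway, chosen by name from the table of gene counts. Of the 10 symbols looked for, 6 had a row among the 18903 genes of the table: the receptors *Notch1*, *Notch2* and *Notch3*, the ligand *Jag1* and the target genes *Hes1* and *Hey1*. All 6 passed the filter on low counts that left 17938 genes for testing, whereas *Jag2*, *Dll1*, *Hes5* and *Heyl* were not analysed here. RNA-seq was performed on primary mouse astrocytes from brains taken at postnatal day 1, 6 and 8 (P1, P6 and P8), and each of the 6 groups had 2 libraries. The libraries labelled cKO came from mice in which Cre, driven by the human *GFAP* promoter, removes *Rack7* (gene symbol *Zmynd8*) flanked by loxP sites on both alleles (hGFAP-cre:: *Rack7* fl/fl). Those labelled WT came from mice with the same Cre and intact *Rack7* alleles (hGFAP-cre:: *Rack7* +/+), so every group carried the transgene. This promoter is active from embryonic life in neural stem cells that give rise to neurons as well as glia, so the deletion is not limited to astrocytes. Before culture the meninges were peeled away, and shaking served to detach microglia and oligodendrocytes. The remaining cells were grown until confluent, so P1, P6 and P8 are ages at dissection and not the age of the cells sequenced. The question was how the loss of RACK7, a reader of chromatin marks, changes gene expression as astrocytes mature. The labels call the libraries of a group biological repeats without stating whether they came from separate animals or cultures, so the tests measure the spread between these libraries, which may be technical. In addition, these are bulk samples, and fewer cells of a type and less RNA per cell cannot be told apart.

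In Notch signaling, a Jagged or Delta-like ligand on one cell binds a NOTCH receptor on its neighbour. The receptor is then cleaved by an ADAM protease and by gamma-secretase, and its intracellular domain enters the nucleus, where it joins the DNA-binding protein RBPJ and a Mastermind coactivator. The *Hes* and *Hey* genes are classic targets of this complex and encode basic helix-loop-helix repressors that hold back proneural genes. In the developing forebrain the pathway keeps neural progenitors undifferentiated and later favours astrocyte formation. NOTCH3 is best known from the mural cells of blood vessels.

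*Jag1* (ENSMUSG00000027276, GRCm38 chr2:137081456-137116644, minus strand) and *Notch3* (ENSMUSG00000038146, chr17:32120820-32166852, minus strand) were lower in the libraries labelled cKO at P6 and P8, and the DNA upstream of both genes is shown because these were the only 2 of the 6 genes called between the labels. The sequences are from RefSeq, whose table held a window for 4 of the 6 genes, and they run 5′ to 3′ on the gene's strand. For *Jag1* they cover chr2:137116645-137116770, the 126 bases of the window before the start of the gene in GENCODE, and for *Notch3* chr17:32166891-32167140, the 250 bases before the RefSeq start.
Jag1: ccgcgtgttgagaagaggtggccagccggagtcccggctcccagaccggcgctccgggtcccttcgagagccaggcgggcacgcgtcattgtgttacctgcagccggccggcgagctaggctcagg
Notch3: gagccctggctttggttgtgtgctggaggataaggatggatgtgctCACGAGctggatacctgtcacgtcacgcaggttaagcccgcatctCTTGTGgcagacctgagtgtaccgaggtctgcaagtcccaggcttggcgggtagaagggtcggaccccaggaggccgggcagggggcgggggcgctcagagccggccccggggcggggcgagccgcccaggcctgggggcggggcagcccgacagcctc
Both strands were searched for the core of the RBPJ site (TGGGAA), the N-box bound by HES repressors (CACNAG) and the E-box (CANNTG), and capitals mark every match in the printed bases. The *Notch3* window held 2 N-boxes, the first from 204 to 199 bases and the second from 159 to 154 bases before the RefSeq start, and neither of the other motifs. The whole 250-base *Jag1* window held 1 E-box, from 82 to 77 bases before the RefSeq start and so in the part not printed, and neither of the other motifs. Over the 250-base windows of 32851 promoters, 36.7% held an N-box, 21.6% an RBPJ core and 66.2% an E-box, so these matches are a description of the letters only.

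Before the members are compared, the labels and the cultures were checked. Counts per library added up to between 54413504 and 89183250. *Zmynd8*, the targeted gene, went against the label, at 100 to 136 CPM (counts scaled to a common library size) in the libraries labelled WT and 160 to 242 CPM in those labelled cKO, with log2 fold changes of 0.65, 1.04 and 0.70 at P1, P6 and P8. The paper reports an immunoblot of RACK7 protein in primary astrocytes of both genotypes. Its RACK7 ChIP-seq found far fewer peaks in astrocytes from cKO mice. Neither is a measurement of these libraries. Counts over the whole gene do not check the deletion of its floxed exons, and every direction below is therefore one between libraries labelled cKO and WT. The astrocyte marker *Gfap* was expressed in every library, at 176 to 578 CPM. The summed level of 8 fibroblast markers differed widely between labels and is given beside the results it moves with.

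At P1, none of the 6 genes was called between the labels by edgeR's quasi-likelihood test, where a call needs a Benjamini-Hochberg adjusted p below 0.05 over all genes tested and a fold change of at least 1.5. Of all genes, 4.88% were called. DESeq2 and an unadjusted p below 0.05 with the same fold change also called 0 of the 6 (8.63% of all genes under the latter), and unadjusted p alone was below 0.05 for *Notch2* (0.00524) and *Hes1* (0.0153). At P6 and at P8, *Notch3* and *Jag1* were called, both lower in the libraries labelled cKO, and no member was called higher. That is 2 of 6 genes at each time point, against 13.4% of all genes called at P6 and 19.4% at P8, or 6.32% and 8.33% in the downward direction. The 6 genes had a median log2 fold change of 0.07, 0.05 and -0.31 at P1, P6 and P8, beside 0, 0 and 0.01 for all genes tested. Both libraries labelled cKO lay above both labelled WT for 1, 3 and 2 of the 6 genes at the 3 time points, where 25.8%, 29.7% and 36.9% of all genes did so, and below them for 1, 2 and 4, where 25.4%, 29.3% and 33.8% did. With 2 libraries against 2, an exact permutation test of a single gene cannot give a p below 0.333, so the calls rest on the spread shared across genes and groups.

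**Figure D1:**
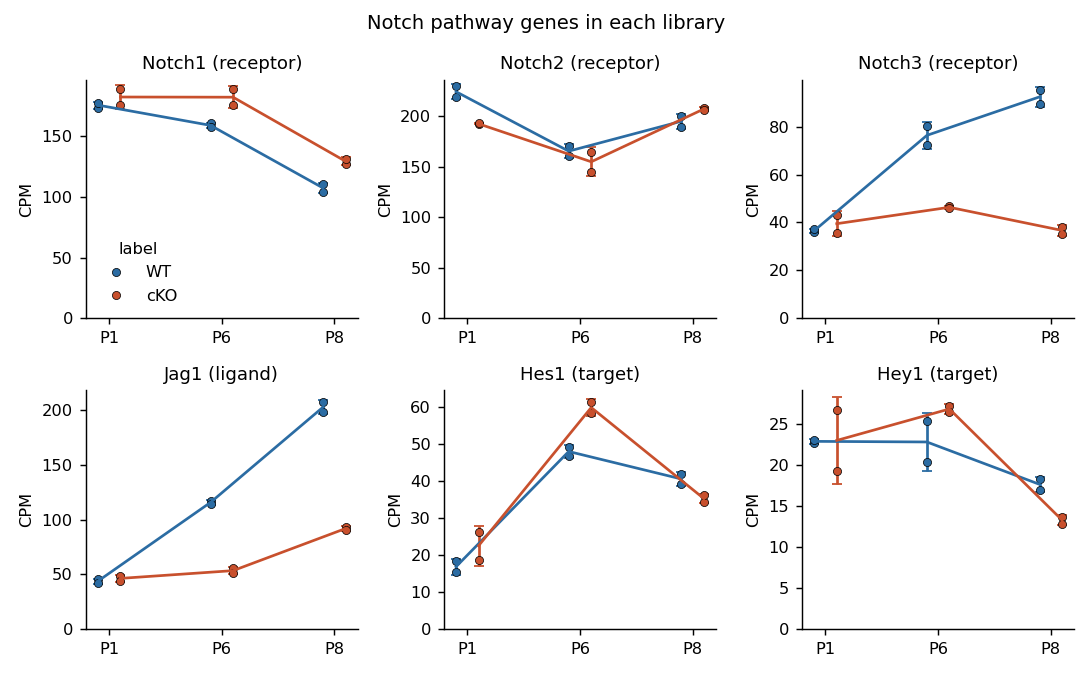
CPM of each gene (linear axis from 0) in the 12 libraries at P1, P6 and P8, with points for libraries, lines through group means and bars of 1 SD over 2 libraries. For *Jag1* the libraries labelled WT climb from 42.1 to 45.4 CPM at P1 to 198 to 208 CPM at P8, while those labelled cKO reach 90.5 to 93.3 CPM.

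*Notch1* (ENSMUSG00000026923, chr2:26457903-26516663, minus strand) encodes the receptor whose activity maintains neural stem cells. The P1 levels were 174 and 178 CPM under the label WT against 176 and 190 CPM under the label cKO. At P6 the values were 161 and 158 CPM against 176 and 189 CPM, and at P8 they were 104 and 110 CPM against 127 and 132 CPM. The groups overlapped at P1, and at P6 and P8 both libraries labelled cKO were the higher ones. The log2 fold change was 0.05 (SE 0.054, adjusted p = 0.662) at P1, 0.20 (SE 0.054, adjusted p = 0.0233) at P6 and 0.27 (SE 0.055, adjusted p = 0.00342) at P8. The differences at P6 and P8 passed the adjusted p but, at 1.15-fold and 1.20-fold, not the fold cut-off. In time, *Notch1* fell from P1 to P8 in the libraries labelled WT by 0.71 on the log2 scale (adjusted p = 2.49e-06) and was called there. In those labelled cKO the log2 difference was -0.50 (adjusted p = 6.14e-05), short of the fold cut-off, and the difference between the 2 labels' courses from P1 to P8 was 0.22 (SE 0.077, adjusted p = 0.0689). Of its exonic bases, 1482 of 14232 are shared with the transcripts 0610009E02Rik and Gm13568 of the opposite strand and with Mir6996, and whether strand was used in the counting was not stated in the sources read.

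*Notch2* (ENSMUSG00000027878, chr3:98013527-98150361, plus strand) was the receptor with the highest level per kilobase of exon in every group. This rank depends on the exon lengths used, the union of all annotated exons, at 10782 bases for *Notch2* and 14232 for *Notch1*. In CPM alone, *Notch1* had the higher mean at P6 under the label cKO (182 against 155 CPM). Under the label WT it had 219 and 230 CPM at P1, against 192 and 193 CPM under the label cKO. The P6 levels were 170 and 161 against 145 and 165 CPM, and the P8 levels 189.8 and 200.5 against 208 and 206 CPM. The libraries labelled cKO were thus the lower ones at P1, overlapped with the others at P6 and were the higher ones at P8. None of these differences was called, with log2 fold changes of -0.22 (SE 0.062, adjusted p = 0.0527), -0.09 (SE 0.062, adjusted p = 0.317) and 0.09 (SE 0.062, adjusted p = 0.324). The change of the genotype effect from P1 to P8 was 0.31 (SE 0.087, adjusted p = 0.0262), a call that was lost in 6 of 19 alternatives (12 that leave out a library and 7 other settings, without the stricter fold cut-off of 2), each of which left out 1 of the P1 or P8 libraries, with an adjusted p of up to 0.094. Over time, the libraries labelled WT and those labelled cKO both had lower levels at P6 than at P1, with log2 differences of -0.44 and -0.31 that did not reach the fold cut-off. Of the 10782 exonic bases of *Notch2*, 541 are shared with Gm42819 and Gm42820, annotated on the same strand.

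*Notch3* was the only receptor called between the labels. Its level under the label WT was 35.9 and 37.2 CPM at P1, then 80.4 and 72.3 CPM at P6, and finally 95.3 and 89.6 CPM at P8. Under the label cKO it had 43.2 and 35.7 CPM at P1, then 46.8 and 45.9 CPM at P6, and finally 38.3 and 35.0 CPM at P8. The groups overlapped at P1, and at P6 and P8 every library labelled cKO was below every library labelled WT. The log2 fold change between labels was 0.11 (SE 0.095, adjusted p = 0.583) at P1, -0.72 (SE 0.095, adjusted p = 0.000312) at P6 and -1.33 (SE 0.096, adjusted p = 2.64e-06) at P8, that is 1.65-fold and 2.52-fold lower. The 19 alternatives kept both calls, and a fold cut-off of 2 removed the one at P6. Among the 19, unadjusted p could not have removed a call. Most fits with a library left out also kept every library of the 2 groups compared. The summed level of 8 fibroblast markers was lower in the same groups, at 2573 and 2395 CPM under the label cKO against 6561 and 6609 CPM under the label WT at P6 and at 8092 and 8344 against 25713 and 25589 CPM at P8. At P1, where the groups overlapped in *Notch3*, this sum was higher under the label cKO, at 2438 and 2410 CPM against 356 and 369 CPM. Of the 6 mural cell markers tested, the pericyte markers *Pdgfrb* and *Rgs5* were called lower at P6 (log2 fold changes -0.59 and -1.02, adjusted p = 1.39e-05 and 0.035). The contractile genes *Cnn1* and *Myh11* were called higher there (0.85 and 1.97), and the sum of the list was also higher under the label cKO. *Rgs5* was low, with P6 means of 2.66 CPM for WT and 1.31 CPM for cKO. At P8 *Pdgfrb* and *Rgs5* had log2 fold changes of -0.45 (adjusted p = 5.57e-05) and -0.11 (adjusted p = 0.821), neither of them past both thresholds. *Cnn1* and *Myh11* were again called higher at P8. The part of these cell types in the difference was not tested.

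The courses in time were compared next. In the libraries labelled WT, *Notch3* rose from P1 to P6 by 1.06 (SE 0.095, adjusted p = 1.08e-05) and over the whole span to P8 by 1.34 (SE 0.096, adjusted p = 1.45e-06) on the log2 scale. In those labelled cKO no step was called, with log2 differences of 0.23 from P1 to P6, -0.34 from P6 to P8 and -0.11 from P1 to P8. The genotype effect itself differed between P6 and P1 by -0.83 (SE 0.134, adjusted p = 0.00203), between P8 and P6 by -0.61 (SE 0.133, adjusted p = 0.00852) and between P8 and P1 by -1.45 (SE 0.134, adjusted p = 2.61e-05), and no alternative removed these calls. An antisense transcript, Gm17276, shares 488 of the 8089 exonic bases of *Notch3*.

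Within each library, the level per kilobase of exon was used to ask how the 3 receptors divide their total. Among libraries labelled WT, *Notch3* made up 12% ± 0.022 (SD, n = 2) of the receptor total at P1, 26.2% ± 0.90 at P6 and 30.8% ± 1.8 at P8. In those labelled cKO its share was 13.7% ± 1.9, 17.4% ± 1.3 and 13.8% ± 0.78. The share of *Notch2* at P8 was 48.8% ± 1.2 in the libraries labelled WT and 58.5% ± 0.11 in those labelled cKO, and that of *Notch1* was 20.4% ± 0.53 and 27.7% ± 0.89. These shares sum to the whole, so a lower share of 1 receptor raises those of the others. Their size also depends on the exon lengths used, 14232 bases for *Notch1*, 10782 for *Notch2* and 8089 for *Notch3*. No test was run on them.

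**Figure D2:**
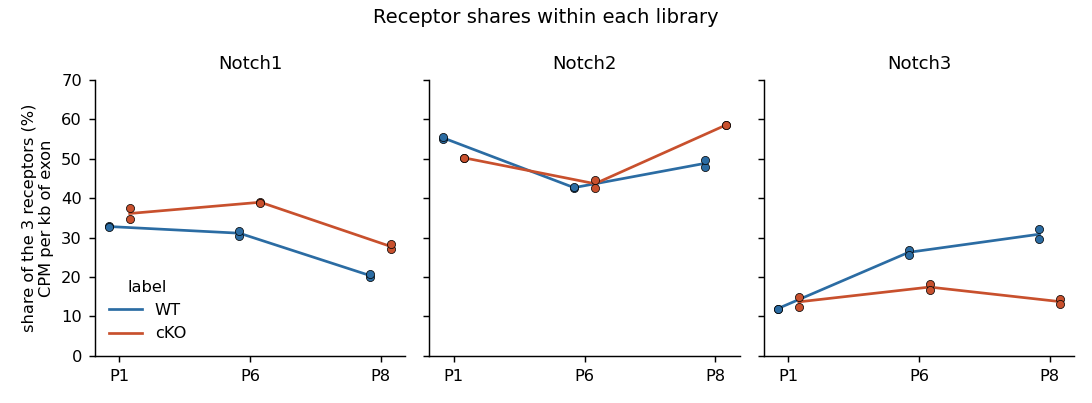
Share of each receptor in the summed level per kilobase of exon of *Notch1*, *Notch2* and *Notch3* (percent, linear axis) in each library at P1, P6 and P8, with lines through group means. The *Notch3* share ends at 30.8% in the libraries labelled WT and at 13.8% in those labelled cKO.

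*Jag1* encodes the ligand JAGGED1, which astrocytes and vascular cells present to NOTCH receptors on neighbouring cells. Its WT-labelled libraries had 45.4 and 42.1 CPM at P1, then 117 and 114 CPM at P6, and 208 and 198 CPM at P8. The cKO-labelled ones had 48.4 and 44.1 CPM at P1, then 55.4 and 51.2 CPM at P6, and 93.3 and 90.5 CPM at P8. The groups overlapped at P1 and were far apart at P6 and P8, where each library labelled cKO was lower. The log2 fold change was 0.08 (SE 0.066, adjusted p = 0.558) at P1, -1.12 (SE 0.066, adjusted p = 1.09e-06) at P6 and -1.14 (SE 0.066, adjusted p = 5.76e-07) at P8, or 2.17-fold and 2.21-fold lower. The 19 alternatives, with the limits given for *Notch3*, and a fold cut-off of 2 kept both calls. The fibroblast sum given for *Notch3* was lower in the same groups at P6 and P8, and at P1 it was the higher one under the label cKO while the *Jag1* groups overlapped. No annotated gene overlaps *Jag1*.

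The libraries of both labels ended with more *Jag1* than they began with, but not over the same steps. Under the label WT it rose by 1.41 from P1 to P6 (adjusted p = 9.67e-08) and by 0.81 from P6 to P8 (adjusted p = 7.2e-06) on the log2 scale. In those labelled cKO the first step was 0.21 (adjusted p = 0.0318), below the fold cut-off, and the second was a rise of 0.79 (adjusted p = 6.09e-06). The genotype effect changed from P1 to P6 by -1.20 (SE 0.093, adjusted p = 1.38e-05). From P6 to P8 the change was -0.02 (SE 0.093, adjusted p = 0.897). The difference between labels in *Jag1* was thus -1.12 at P6 and -1.14 at P8 on the log2 scale, whereas that in *Notch3* was larger at P8 than at P6.

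**Figure D3:**
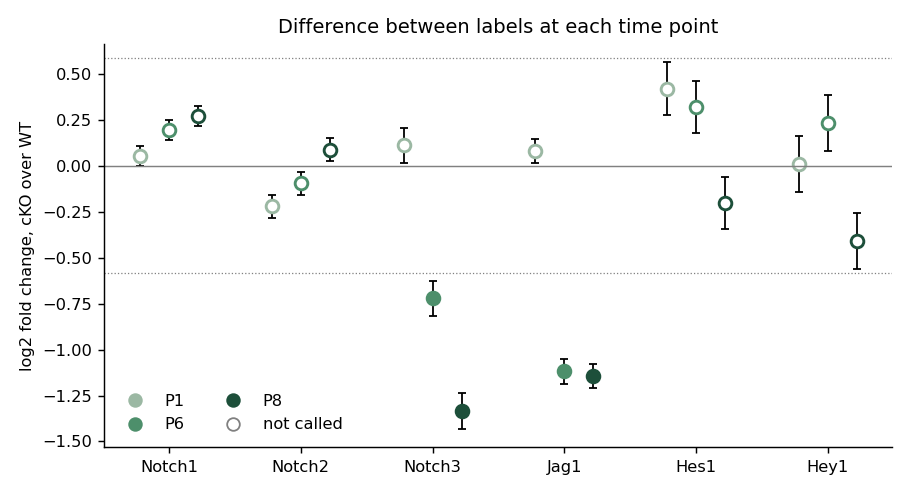
Log2 fold change of each gene between libraries labelled cKO and WT at P1, P6 and P8 from edgeR, with bars of 1 standard error, filled points for called differences and dotted lines at a fold change of 1.5. *Notch3* and *Jag1* at P6 and P8 are the only points past the lower line.

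Among the target genes, *Hes1* (ENSMUSG00000022528, chr16:30064384-30067796, plus strand) encodes a repressor that keeps progenitors from differentiating. The P1 levels were 18.3 and 15.3 CPM under the label WT against 26.2 and 18.7 CPM under the label cKO. They were 46.6 and 49.2 against 61.4 and 58.2 CPM at P6, and 41.7 and 39.2 against 34.3 and 36.1 CPM at P8. The libraries labelled cKO were above the others at P1 and P6 and below them at P8, yet none of the 3 differences was called (log2 fold changes of 0.42, 0.32 and -0.20 with SE of 0.143, 0.141 and 0.141 and adjusted p = 0.111, 0.134 and 0.318). The P1 libraries labelled cKO lay apart from each other. With 1 library left out, the log2 fold change at P1 ran from 0.15 to 0.64, and the gene was called only at 0.64, without P1 cKO replicate 2. *Hes1* rose from P1 to P6 under both labels, by 1.51 (adjusted p = 1.76e-05) for WT and 1.41 (adjusted p = 3.33e-05) for cKO on the log2 scale. From P6 to P8 it then fell by 0.76 in the libraries labelled cKO (adjusted p = 0.00162), while in those labelled WT the difference was -0.24 (adjusted p = 0.22). The genotype effects on these 2 steps were not shown to differ (-0.10, SE 0.201, and -0.52, SE 0.199, adjusted p = 0.823 and 0.0961), and the change over the whole span from P1 to P8, at -0.62 (SE 0.201, adjusted p = 0.0465), lost its call in 11 of 19 alternatives.

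*Hey1* (ENSMUSG00000040289, chr3:8663359-8667256, minus strand), encodes a repressor related to HES1 that is also active in vascular development. Under the label WT it had 22.7 and 23.1 CPM at P1 against 26.8 and 19.2 CPM under the label cKO, and 20.3 and 25.3 against 27.2 and 26.4 CPM at P6. The P8 levels were 18.3 and 17.0 against 13.7 and 12.9 CPM. The groups overlapped at P1, and the libraries labelled cKO were the higher ones at P6 and the lower ones at P8. The log2 fold changes of 0.01, 0.23 and -0.41 had SE of 0.152, 0.152 and 0.153 and adjusted p of 0.995, 0.315 and 0.0654, so none was called. *Hey1* fell in the libraries labelled cKO from P6 to P8 by 1.02 on the log2 scale (adjusted p = 0.000434), whereas the difference in those labelled WT was -0.37 (adjusted p = 0.0889), and the test of the difference between these steps gave -0.64 (SE 0.216, adjusted p = 0.0609).

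Neither target gene was thus called between the labels at any time point, and whether their effects differed from those of *Jag1* and *Notch3* was not tested. Over the steps in time, 3 members rose and none fell from P1 to P6 in the libraries labelled WT, where 23% of all genes were called, and 1 rose in those labelled cKO, where 21.2% were called. From P6 to P8, 1 member rose for WT (18.7% of all genes called), and for cKO 1 rose and 2 fell (23.7%). Over the whole span from P1 to P8, 3 members rose and 1 fell for WT (29%), and 2 rose and 1 fell for cKO (19.9%). The genotype effect differed for 2 members between P6 and P1, for 1 between P8 and P6 and for 4 between P8 and P1, against 15.4%, 21.7% and 25.7% of all genes. Comparisons within a time point and steps in time share libraries and are not independent of each other.

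Levels were compared between genes per kilobase of exon, counted over the union of all annotated exons, so the order depends on these lengths. In the libraries labelled WT at P1 the order ran from *Notch2* (20.8 CPM per kilobase) over *Notch1* (12.4), *Hes1* (8.24), *Jag1* (7.50) and *Hey1* (7.01) to *Notch3* (4.52), and only *Hes1* and *Jag1* overlapped as neighbours. By P8 *Jag1* led these libraries at 34.9 CPM per kilobase, before *Hes1* (19.9), *Notch2* (18.1), *Notch3* (11.4), *Notch1* (7.55) and *Hey1* (5.40), with no overlap between neighbours. In the libraries labelled cKO, *Notch2* led at P1 (17.9) and at P8 (19.2), and *Notch3* was at 4.88 and 4.53 CPM per kilobase. There, *Notch1* overlapped with *Hes1* and *Jag1* with *Hey1* at P1, and no neighbours overlapped at P8. At P6 *Hes1* had the highest level under both labels, 23.5 for WT and 29.3 for cKO, followed by *Jag1* (19.9) for WT and *Notch2* (14.4) for cKO.

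The genes whose log2 CPM followed these patterns most closely were sought among 15145 genes over the 12 libraries, which share their time points and labels, so the correlations are a description. For *Notch1* they were *Fbxo32*, *Col4a6* and *Akap6* (Pearson's r of 0.992, 0.988 and 0.987). For *Jag1* they were *Podn*, *Gm42755* and *Ltbp4* (0.997, 0.994 and 0.991). The same measure was added for *Hes1* and *Notch3* after their values had been seen, and gave *Fam20b*, *Sptbn1* and *Jup* (0.979, 0.971 and 0.969) for the former and *Slc12a2*, *Ccdc8* and *Tenm3* (0.985, 0.985 and 0.984) for the latter.

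The rest of the pathway was examined in 8 lists with 62 genes, of which 50 were tested. At P1 edgeR called 0 of the 50. An unadjusted p below 0.05 with the same fold change called 1, *Adam17*, a sheddase that can cut NOTCH receptors (log2 fold change -0.61, adjusted p = 0.0775), which is named after its value was seen, and DESeq2 also called 1 gene, of the same list of proteases. At P6, 4 of the 50 rose and 2 fell, and at P8, 7 rose and 3 fell, or 12% and 20% of the genes, near the 13.4% and 19.4% of all genes tested. The median log2 fold change of the 50 was -0.02, 0.05 and 0.10 at the 3 time points, beside 0, 0 and 0.01 for all genes.

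Among 4 other receptors and ligands, 1 rose at P8. *Dner*, a transmembrane protein with Delta-like repeats, had 13.8 and 14.2 CPM for WT against 25.2 and 28.1 CPM for cKO (log2 fold change 0.93, SE 0.072, adjusted p = 4.53e-06). Its mean at P6 was far higher, 101.7 CPM for WT and 151.9 CPM for cKO. At P1 and P6 the log2 fold change of *Dner* was 0.53 and 0.58 (adjusted p = 0.00105 and 0.000179). These passed the adjusted p but not the fold cut-off. Both other *Hes* and *Hey* genes tested, *Hes6* and *Hey2*, were not called at any time point, with log2 fold changes from -0.12 to 0.48.

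Of the 8 genes of the transcription complex, 1 was called. *Rbpj*, the DNA-binding partner of every NOTCH receptor, rose at P8 from a mean of 201 CPM ± 10 (SD, n = 2) to 321 CPM ± 6.8 (log2 fold change 0.68, SE 0.051, adjusted p = 3.71e-06). At P1 and P6 its log2 fold change was 0.09 and 0.12, neither of them called. Of 5 glycosyltransferases, which add sugars to the receptors, 2 rose at P8. *Lfng* (lunatic fringe) was at 21.2 and 22.8 CPM for WT and 41.8 and 43.3 CPM for cKO (log2 fold change 0.95, SE 0.062, adjusted p = 1.28e-06). The call of *Mfng* (manic fringe) at 0.59 (adjusted p = 0.0433) was lost in 14 of 19 alternatives, with an adjusted p between 0.0243 and 0.245 over all of them.

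Of 9 proteases and subunits of gamma-secretase, *Aph1c* rose at P8, from 12.6 CPM ± 1.5 (SD, n = 2) to 23.5 CPM ± 1.4 (log2 fold change 0.90, SE 0.174, adjusted p = 0.00254). Among 11 genes for ligand and receptor trafficking and inhibitors, 2 rose and 1 fell at P6 and 1 rose at P8. *Nrarp*, a feedback inhibitor that Notch signaling itself induces, was low throughout and stood at 1.29 CPM for WT and 3.53 CPM for cKO at P6 (log2 fold change 1.45, SE 0.364, adjusted p = 0.0148). Its call was lost when P6 WT replicate 1 or 2 or P6 cKO replicate 2 was left out (adjusted p = 0.0565, 0.0858 and 0.0601, respectively). *Dtx4*, a Deltex ubiquitin ligase, rose at P8 from 28.4 CPM ± 0.14 (SD, n = 2) to 56.1 CPM ± 2.4 (log2 fold change 0.98, SE 0.052, adjusted p = 2.87e-07). At P1 and P6 its log2 fold change was -0.21 and 0.52 (adjusted p = 0.0282 and 4.09e-05), neither past the fold cut-off.

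The bHLH list held 5 genes that were tested. *Id1*, an inhibitor of bHLH factors, rose at P6 (0.63, adjusted p = 0.000353), a call lost without P6 WT replicate 1 (0.56) or P6 cKO replicate 1 (0.58), which took it under the fold cut-off. *Id3* fell at P8 by 0.66 on the log2 scale (adjusted p = 1.33e-05). Of 6 glial genes linked to Notch, 1 rose and 1 fell at P6, and 1 rose and 2 fell at P8. *Nes*, the intermediate filament of neural progenitors, rose at P6 from 864 CPM ± 36 (SD, n = 2) to 2029 CPM ± 19 and at P8 from 147 CPM ± 6.8 to 499 CPM ± 6.5 (log2 fold changes 1.23 and 1.76, adjusted p = 2e-08 and 1.48e-09). Of 7 neural stem cell markers, 3 rose and 1 fell at P6, and 5 rose and 2 fell at P8, among them *Sox2* (1.35) and *Pax6* (1.69) upward and *Egfr* (-3.07) downward at P8, and their part in the difference of *Nes* was not tested. *Aldoc*, an enzyme of mature astrocytes, fell by 0.74 at P6 and by 1.30 at P8 (adjusted p = 0.000425 and 5.51e-06).

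**Figure D4:**
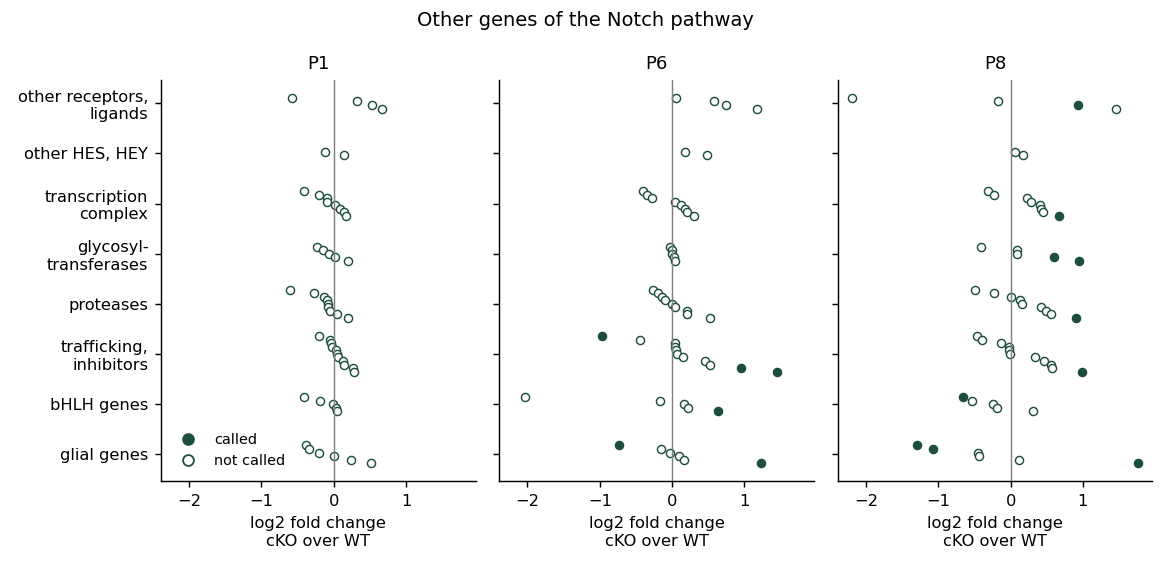
Log2 fold change between libraries labelled cKO and WT of the 50 other Notch pathway genes tested, in 8 lists, at P1, P6 and P8, with filled points for called genes. No point is filled at P1, 6 are filled at P6 and 10 at P8, of which *Nes* lies farthest to the right.

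Markers of other cell types moved between the same groups. Of the 8 fibroblast markers, whose sums are given with *Notch3*, 6 were called higher under the label cKO at P1, and 6 were called lower at P6 and at P8. The collagens *Col1a1*, *Col1a2* and *Col3a1* were among them at each time point. The fibroblast marker *Dpt* was at or near 0 in every library, with at most 0.205 CPM.

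**Figure D5:**
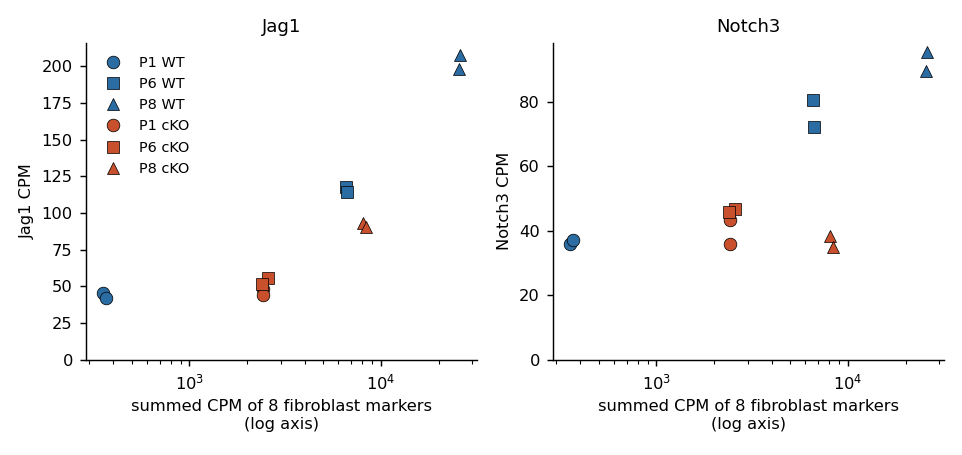
CPM of *Jag1* and *Notch3* (linear axes from 0) against the summed CPM of 8 fibroblast markers (log axis) in the 12 libraries, with colours for the label and symbols for the time point. The sums run from 356 and 369 CPM in the P1 libraries labelled WT to 25713 and 25589 CPM in the P8 libraries labelled WT. *Col1a1* and *Col1a2* weigh most in them, with means of 3960 and 2990 CPM at P8 under the label cKO. The part of fibroblasts in the level of either gene was not tested.

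Mural cells were represented by 6 of 9 listed markers, whose sum was higher in the libraries labelled cKO at each time point, at 4030 CPM in both against 2773 and 2778 CPM at P1, 4192 and 4779 against 3459 and 3581 CPM at P6 and 3291 and 3329 against 2526 and 2554 CPM at P8. *Acta2* and *Tagln* weighed most in this sum, with P8 means of 1588 and 685 CPM under the label WT, and neither was called at any time point. Within the list, the contractile genes *Cnn1* and *Myh11* rose at P6 and P8. The pericyte receptor *Pdgfrb* went the other way from the sum at P6, as given with *Notch3*, and was called higher under the label cKO at P1 (0.60, adjusted p = 3.91e-05). *Rgs5* did not pass 6.66 CPM in any library. Of 8 endothelial markers 4 were tested, and they summed to 23.8 to 25.6 CPM for WT and 47.6 to 50.2 CPM for cKO at P1, 120 to 124 against 58.5 to 62.5 CPM at P6 and 148 to 161 against 36.9 to 39.9 CPM at P8. At P6, *Tek* (-6.28), *Cdh5* (-6.03) and *Kdr* (-0.90) were called lower and none of the list was called higher. This sum was carried at P8 by *Cdh5*, with 133.1 CPM for WT and 9.84 CPM for cKO. *Tek* was called lower at P8 as well (-1.29), while *Flt1* rose (1.92, adjusted p = 2.37e-05), so the list went both ways there. Of 10 astrocyte markers, 6 fell at P8, and their sum was 1740 to 2130 CPM for WT and 754 to 765 CPM for cKO. The 8 microglia markers came to 1950 to 2060 CPM for WT and 3870 CPM for cKO at P8, where 5 rose and *Tmem119* fell by 1.38 on the log2 scale. The part of these cell types in the differences of the Notch genes was likewise not tested.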

How the data were processed

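The authors deposited raw counts, whole numbers of reads per gene in each of 12 libraries, without normalization. Reads had been mapped to GRCm38 with HISAT2, per the methods and the submitters' processing notes, and which program counted them, with which annotation and strand setting, was not stated in the sources read. Gene positions and exon lengths came from GENCODE vM21, where 18861 of the 18903 gene IDs matched. The model was fitted in edgeR 4.0.16 under R 4.3.3 (filterByExpr, TMM, robust quasi-likelihood fit with 1 mean for each of 6 groups, Benjamini-Hochberg adjustment over 17938 genes), with limma 3.58.1 loaded and DESeq2 1.42.0 as an alternative. Groups came from the labels. CPM values use library totals scaled by TMM factors of 0.943 to 1.07, and the common biological coefficient of variation was 0.178. Interactions, the change of the genotype effect between time points, were called by adjusted p alone. The 2 libraries of a group were distinct, since a chi-square test of their counts (genes with 200 counts or more) gave 30.5 to 47.1 for each degree of freedom.

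The Notch genes and the lists of pathway genes and markers were chosen with earlier results of these data known. All Notch genes were described, and of each pathway list the counts and up to 2 called genes with the largest change at any time point and a mean of at least 1 CPM. Likeness used log2(CPM + 1), and could not be computed for *Hes5*, which was not analysed here. Listed genes without a value were not analysed here either. Promoter windows were those of RefSeq for GRCm38.p6. Alternatives were a fold cut-off of 2, unadjusted p, DESeq2 size factors, library totals, tests without a count filter, a block for the replicate number, the compared groups alone, DESeq2, and each library left out in turn, where the remaining library of a group is assumed to vary like the others. Unadjusted p can add calls but cannot remove one. Leaving out a library of a group that is not compared acts on a call only through the filter, the normalization and the shared spread. Simulated data of the P8 comparison (17782 genes) were tested in edgeR. Adjusted p was below 0.05 for 36% of 50 genes changed 1.5-fold and for 72% of those changed 2-fold. For those changed 3-fold and 4-fold the shares were 86% and 80%. The fold cut-off was not applied to these shares, but it was applied to the 5 false calls.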

Additional observations from a re-analysis of the deposited data

Results flagged for a closer look

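The genotype effect, cKO minus WT on the log2 scale, differed between time points in an interaction test (edgeR, adjusted over all genes) for 4 Notch genes. For *Notch3* the differences were -0.83 between P6 and P1, -0.61 between P8 and P6 and -1.45 between P8 and P1. For *Jag1* they were -1.20 between P6 and P1 and -1.22 between P8 and P1 (adjusted p = 5.95e-06). For *Notch2* the difference between P8 and P1 was 0.31, with libraries labelled cKO below the others at P1 and above them at P8. For *Hes1* the difference between P8 and P1 was -0.62, in the opposite order. Those of *Notch3* and *Jag1* kept their calls in the 19 alternatives, and those of *Notch2* and *Hes1* did not.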

How the results depend on the processing

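Of the values of the Notch genes under each alternative, 1122 kept their direction and their side of the threshold, 20 lost a call, 3 gained one and 14 changed sign, all 14 of them uncalled. With a fold change of at least 2, 1 Notch gene was called at P6 (*Jag1*, without *Notch3*), 0 from P6 to P8 and 1 from P6 to P8 in the libraries labelled WT and cKO, and 0 from P1 to P8 in those labelled cKO. The other pathway genes called then numbered 2 at P6 and 3 at P8. The shares of all genes called with this cut-off or with 1 library left out were not computed. The counts under those settings therefore have no background beside them. The count of genotype effects that differed between P8 and P6 came to 3 with unadjusted p, with the compared groups alone and with DESeq2. With 1 library left out, the calls at P1 numbered 0 to 1, those from P6 to P8 for WT 1 to 2, and the interactions 1 to 3 between P8 and P6 and 2 to 5 between P8 and P1.

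The signs of some uncalled values turned. *Notch1* from P1 to P6 in cKO came to 0.0039 with DESeq2 size factors, 0.004 in DESeq2, 0.0497 without P1 cKO replicate 2 and 0.0495 without P6 cKO replicate 1 (range with 1 library left out -0.0595 to 0.0497). *Hey1* between labels at P1 came to -0.0224 with library totals, -0.0075 without P1 WT replicate 1 and -0.2514 without P1 cKO replicate 1 (up to 0.2251), and *Hey1* from P1 to P6 to 0.0105 without P1 WT replicate 2 and 0.1451 without P6 WT replicate 1 in WT (down to -0.1718) and to -8e-04 without P1 cKO replicate 2 in cKO (up to 0.4756). *Notch2* from P1 to P8 in cKO came to -0.0431 with library totals. Without P1 cKO replicate 1, *Notch3* was at -0.0336 between labels at P1 (up to 0.241) and at 0.0357 from P1 to P8 in cKO (down to -0.2387), and without P1 cKO replicate 2 *Notch1* was at -0.0025 between labels at P1 (up to 0.1066). *Hes1* from P1 to P8 in cKO lost its call with library totals (0.50) and without P1 cKO replicate 2 (0.42), and *Hey1* without P1 cKO replicate 1 (-0.54). *Notch1* gained a call from P1 to P8 in cKO with library totals (-0.65) and from P6 to P8 in WT without P8 WT replicate 2 (-0.61). The cause of these changes was not tested.

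Same-numbered libraries did not deviate together (correlation of deviations -0.0398 to 0.0811), so the numbers were not taken to pair them. With the replicate number as a block, 2 Notch genes were called at P6 and 2 at P8, and the block removed no call of a Notch gene. Of all genes, 2344 were called with the block at P6 and 3401 at P8, against 2411 and 3474 without it.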
